A study of Mus musculus with 15 samples.

Results

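The 33 genes described here encode the enzyme that makes itaconate, the pyruvate dehydrogenase complex with the kinases and phosphatases that switch it, the enzymes of the tricarboxylic acid (TCA) cycle, and 2 enzymes that draw carbon out of it. They were chosen by name from the pathway, and all 33 had a row among the 56979 gene identifiers of the deposited table. Polyadenylated RNA had been sequenced from wild type mouse bone marrow cells in 5 groups of 3 libraries each. The bone marrow-derived macrophages (BMDM) were Control (vehicle), LPS (lipopolysaccharide, the bacterial cell wall molecule sensed by TLR4) and LPS_NZM (LPS followed by NZM). The BMSC were Aged (treatment label H2HO) and Aged_NZM (H2HO followed by NZM). The labels explain neither NZM nor H2HO, and they give no strain or age for any animal and no dose or time. They do not say whether the libraries of a group came from separate animals or cultures, so each p-value rests on the scatter of these libraries alone, and that scatter may be technical.

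The TCA cycle, in the mitochondrial matrix, oxidises acetyl groups made from pyruvate, fat or amino acids and passes the electrons to the respiratory chain. Pyruvate enters through the pyruvate dehydrogenase complex, which the PDK kinases switch off and the PDP phosphatases switch back on. In activated macrophages ACOD1 takes cis-aconitate from the cycle and turns it into itaconate, which inhibits succinate dehydrogenase, and citrate exported to the cytosol is split by ATP citrate lyase for lipid synthesis.

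Values are TPM, a share of each library's transcripts corrected for gene length. The deposited values keep no depth, so no counting error can be given. Between 21360 and 23398 identifiers were above 0 in a library. The summed TPM of 6 macrophage markers was 25694 to 28071 in Control, 19446 to 19601 in LPS and 21378 to 21885 in LPS_NZM, against 18.6 to 32.7 in the BMSC libraries, where the macrophage marker Adgre1 was listed at 0 in Aged. The BMDM libraries also held 7 neutrophil markers at a summed 1487 to 2443 TPM and 8 mesenchymal stromal markers at 2275 to 3050 TPM. Mast cell and basophil markers ranged from 13.7 to 384 TPM among the Control libraries alone. A level here is therefore that of the whole culture, and fewer cells of a type and less RNA per cell cannot be told apart. The BMSC libraries carried the stromal markers at 2661 to 2758 TPM in Aged and 6090 to 6099 TPM in Aged_NZM, with the stromal marker Lepr at 0.60 and 0.21 TPM on average. Transcripts of the mitochondrial genome made up 4.10% to 4.17% of Control, 2.92% to 3.09% of LPS, 3.71% to 3.82% of LPS_NZM, 1.41% to 1.47% of Aged and 3.94% to 4.25% of Aged_NZM. The part of these marker and mitochondrial differences in the results was not tested, except that the comparisons were repeated with the mitochondrial transcripts taken out.

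Acod1 (ENSMUSG00000022126) encodes aconitate decarboxylase, which makes itaconate. It was read at 5.44, 5.22 and 37.1 TPM in the 3 Control libraries, at 4819, 4849 and 4933 TPM in LPS and at 184, 182 and 184 TPM in LPS_NZM. The 3 groups did not overlap, and Control replicate 3 lay far above the other 2 Control libraries. Ranked by TPM, Acod1 was the 10th to 12th most abundant of all genes in the LPS libraries, and it held rank 920 to 928 in LPS_NZM. In BMSC it was read at 0.42, 0.16 and 0.08 TPM in Aged and 0.11, 0 and 0.17 TPM in Aged_NZM, below the minimum of 1 TPM for testing there.

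The difference between LPS and Control was tested with limma on log2(TPM + 1) over all genes, with Benjamini-Hochberg adjustment, and an adjusted p under 0.05 counted as a call. The added 1 understates the fold of genes with few TPM. Acod1 rose with LPS (log2 change 8.72 with SE 0.56, adjusted p = 2.14e-07), and the mean was 306-fold that of Control. Without Control replicate 3 the log2 change was 9.59, and without Control replicate 2 it was 8.28. LPS_NZM was far below LPS (log2 change -4.72 with SE 0.56, adjusted p = 2.49e-05), at 1 part in 26.5 of the LPS mean, yet still 11.5-fold above Control (log2 change 4.00 with SE 0.56, adjusted p = 2.54e-04). Leaving out single libraries moved this last log2 change between 3.56 and 4.87, the highest without Control replicate 3. The 9 BMDM libraries were fitted together, so the SE of 0.56 is shared by these comparisons. In LPS_NZM against LPS it therefore includes the scatter of the Control libraries.

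**Figure D1:**
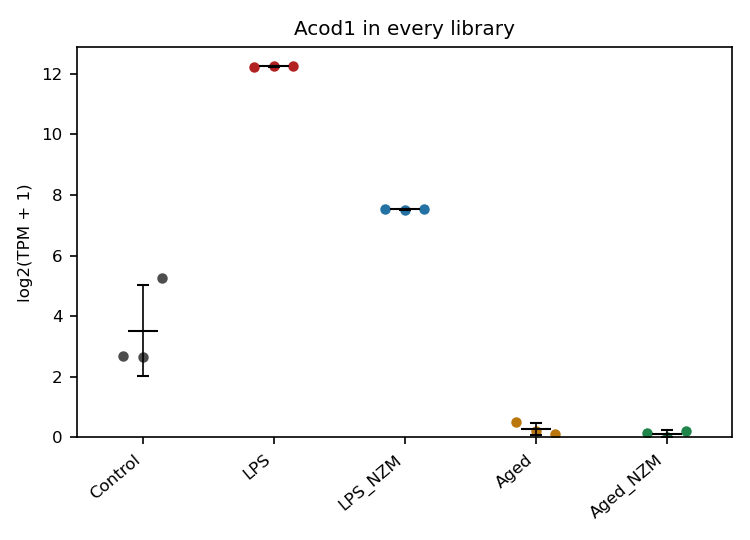
Acod1 in each of the 15 libraries as log2(TPM + 1) (points), with the mean and SD of these values over 3 libraries (bars). The LPS libraries sit between 4819 and 4933 TPM, the LPS_NZM libraries between 182 and 184 TPM, the Control libraries between 5.22 and 37.1 TPM, and every BMSC library is below 1 TPM.

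Acod1 and Idh2, the mitochondrial NADP-dependent isocitrate dehydrogenase, went opposite ways with LPS, and the 250 bases before their start sites are shown to set the promoters side by side. They are RefSeq sequences of build GRCm38.p6, an older build than the deposited values, at chr14:103046762-103047011 on the plus strand for Acod1 and chr7:80115351-80115600 on the minus strand for Idh2, written 5′ to 3′. Capitals mark a match to the NF-kB consensus.
Acod1: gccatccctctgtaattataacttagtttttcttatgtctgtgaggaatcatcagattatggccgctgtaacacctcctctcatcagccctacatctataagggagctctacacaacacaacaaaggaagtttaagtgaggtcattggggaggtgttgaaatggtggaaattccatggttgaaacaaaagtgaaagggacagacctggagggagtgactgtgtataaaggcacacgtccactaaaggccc
Idh2: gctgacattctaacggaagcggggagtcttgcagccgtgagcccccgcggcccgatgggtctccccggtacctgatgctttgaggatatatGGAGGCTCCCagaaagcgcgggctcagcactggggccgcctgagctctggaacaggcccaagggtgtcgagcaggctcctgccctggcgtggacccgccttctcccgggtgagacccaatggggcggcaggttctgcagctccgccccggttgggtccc
The Acod1 stretch, with a GC content of 44.4%, held no match to any of the 6 motifs searched. The Idh2 stretch, at 67.2% GC, held a single NF-kB match that starts 159 bases before the start site.

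RefSeq windows from 250 bases before to 50 bases after the start site were found for 29 of the 33 genes, in 37 windows, and not for Idh3a, Sdhc, Pdp1 and Me2. Both strands were searched. The NF-kB consensus was present in 21.6% of these windows against 8.46% of all 32851 windows, in Dlst, Idh2, Ogdh, Pdha1, Pdk2, Sdhb, Sucla2 and Suclg2. These windows were richer in GC than all windows, with a median of 61.3% against 52.7%. The E-box CACGTG was present in 13.5% against 7.15%, in Ogdh, Pdk2 and Pdp2. Of the 5 windows with it 3 belong to Ogdh, and 2 of those overlap and hold the same site, which the percentage counts for each window. The estrogen-related receptor motif TNAAGGTCA was present in 2.7% against 1.28%, in Sdhd. The consensus of the interferon-stimulated response element (ISRE) was in 2.7% against 3.44%, in Suclg2. The STAT motif TTCNNNGAA and the NRF1 consensus were in none of them, and in 8.3% and 0.97% of all windows. Single positions can match more than 1 motif, and a match describes letters only.

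Mdh2, mitochondrial malate dehydrogenase, was the most abundant of the other 32 genes in all 5 groups, with 318 ± 2.61 TPM (SD, n = 3) in Control, 218 ± 7.62 TPM in LPS, 358 ± 4.17 TPM in LPS_NZM, 386 ± 5.92 TPM in Aged and 302 ± 12.6 TPM in Aged_NZM. In Control it was followed by Sdha, the flavoprotein subunit of succinate dehydrogenase (198 ± 3.73 TPM), and Cs, citrate synthase (188 ± 7.76 TPM), whose ranges overlapped. At the low end of Control were the regulators Pdk4, Pdk2 and Pdp2, at 12.6 ± 0.61, 7.40 ± 0.43 and 5.90 ± 0.43 TPM. Summed over the 32 genes without Acod1, the TPM was 2806 ± 41.8 in Control, 1943 ± 19.8 in LPS, 3002 ± 16.3 in LPS_NZM, 3158 ± 44.7 in Aged and 2725 ± 18.0 in Aged_NZM. The LPS sum was the lowest of the 5, and the sum with NZM lay above Control in BMDM and below Aged in BMSC.

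Most of the pathway was lower with LPS as deposited. Of the 33 genes 30 fell and 3 rose against Control, beside falls in 65.6% and rises in 15.2% of all 14486 tested genes. The median log2 change of the 33 was -0.56 against -0.48 for all tested genes. After each library was centred on its median gene, 14 fell and 11 rose, beside 29.1% and 36.5% of all genes, so the count of falls depends on the scale. Centring takes the median gene as the reference, and total RNA was not measured, so a change shared by most genes cannot be told apart from a change of scale. The 3 risers were Acod1, Dld and Pdk3, and all 3 also rose after centring.

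All 4 of the largest falls stayed falls after centring, and 3 of them were in genes that switch pyruvate dehydrogenase. Pdk2, a kinase that inactivates the complex, was read at 7.52, 7.76 and 6.93 TPM in Control and 1.24, 1.60 and 1.16 TPM in LPS (log2 change -1.85 with SE 0.099, adjusted p = 5.53e-08). Pdk4, the kinase known for its response to fasting, was read at 13.3, 12.5 and 12.1 TPM and 5.02, 5.13 and 4.88 TPM (log2 change -1.18 with SE 0.071, adjusted p = 1.35e-07). The phosphatase gene Pdp1 was read at 16.5, 16.9 and 16.3 TPM and 5.33, 5.80 and 6.32 TPM (log2 change -1.37 with SE 0.077, adjusted p = 7.65e-08). Kinases and a phosphatase with opposite actions on the complex were thus both low in every LPS library. All 33 genes were without overlap between LPS and Control, so this separation is not particular to the regulators. The share without overlap among all genes was not computed.

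The other regulators moved less. Pdp2, the second phosphatase, was read at 5.84, 6.36 and 5.51 TPM in Control and 2.97, 3.17 and 2.89 TPM in LPS (log2 change -0.78 with SE 0.091, adjusted p = 1.97e-05). Pdk1, a kinase known as a target of hypoxia signalling, was read at 26.6, 27.6 and 28.2 TPM and 18.9, 18.7 and 17.8 TPM (log2 change -0.55 with SE 0.049, adjusted p = 2.71e-06). The Pdk1 fall was not called after centring, whereas that of Pdp2 was. Pdk3 alone among the kinases rose, from 22.1, 21.6 and 22.3 TPM to 24.9, 24.6 and 25.0 TPM (log2 change 0.17 with SE 0.043, adjusted p = 0.00436).

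Within the pyruvate dehydrogenase complex 4 of the 5 genes fell as deposited, beside 65.6% of all genes. The 4 were Pdha1 (-0.71) and Pdhb (-0.20), the E1 subunits, Dlat (-0.47), the acetyltransferase, and Pdhx (-0.32), the E3-binding protein. Pdhb and Pdhx turned to rises after centring, at 0.35 and 0.23. Dld, the dihydrolipoamide dehydrogenase that the complex shares with 2-oxoglutarate dehydrogenase, was read at 90.7, 86.4 and 86.1 TPM in Control and 109, 106 and 102 TPM in LPS (log2 change 0.27 with SE 0.036, adjusted p = 5.37e-05).

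All 19 cycle enzyme genes fell as deposited, with log2 changes from -1.39 to -0.23, beside falls in 65.6% of all genes. After centring 8 of them fell and 6 rose, beside 29.1% and 36.5% of all genes. Idh2 fell most, from 92.3, 95.9 and 89.3 TPM to 34.8, 34.1 and 35.2 TPM (log2 change -1.39 with SE 0.035, adjusted p = 2.22e-10). Its cytosolic counterpart Idh1 was read at 127, 125 and 126 TPM in Control and 62.0, 67.9 and 62.2 TPM in LPS (log2 change -0.97 with SE 0.047, adjusted p = 2.46e-08). Both NADP-dependent isocitrate dehydrogenases were thus lower with LPS, and both stayed lower after centring.

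The succinyl-CoA ligase genes and both malate dehydrogenases fell as deposited, by unequal amounts. Suclg2, the subunit specific for GDP, was read at 20.9, 19.7 and 21.5 TPM in Control and 9.27, 10.3 and 10.3 TPM in LPS (log2 change -0.99 with SE 0.059, adjusted p = 1.26e-07). Sucla2, the subunit specific for ADP, was read at 77.7, 72.8 and 84.6 TPM and 57.8, 58.3 and 59.3 TPM (log2 change -0.41 with SE 0.057, adjusted p = 6.71e-05). After centring Suclg2 remained lower (-0.44) while Sucla2 had no call (0.13). Cytosolic Mdh1 went from 131, 113 and 114 TPM to 63.7, 64.2 and 65.6 TPM (log2 change -0.88 with SE 0.052, adjusted p = 1.16e-07), and mitochondrial Mdh2 from 319, 319 and 315 TPM to 211, 217 and 226 TPM (log2 change -0.54 with SE 0.029, adjusted p = 5.34e-08). Mdh2 stood at 0.00 after centring, with no call.

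The remaining cycle genes that fell on both scales were Aco1 (-0.97), the cytosolic aconitase that doubles as an iron sensor, Idh3a (-0.80) and Idh3g (-0.73), subunits of the NAD-dependent isocitrate dehydrogenase, and Suclg1 (-0.76). Cs, Idh3b, Ogdh, Dlst, Sdha and Sdhd fell as deposited, by log2 changes from -0.43 to -0.23, and rose after centring. Fh1, fumarase, stood at -0.70 as deposited and had no call after centring (-0.15). None of the 4 succinate dehydrogenase genes fell after centring. Of the 2 exits, mitochondrial malic enzyme Me2 fell on both scales (-0.91 as deposited), and Acly, ATP citrate lyase, fell as deposited (-0.62) with no call after centring.

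**Figure D2:**
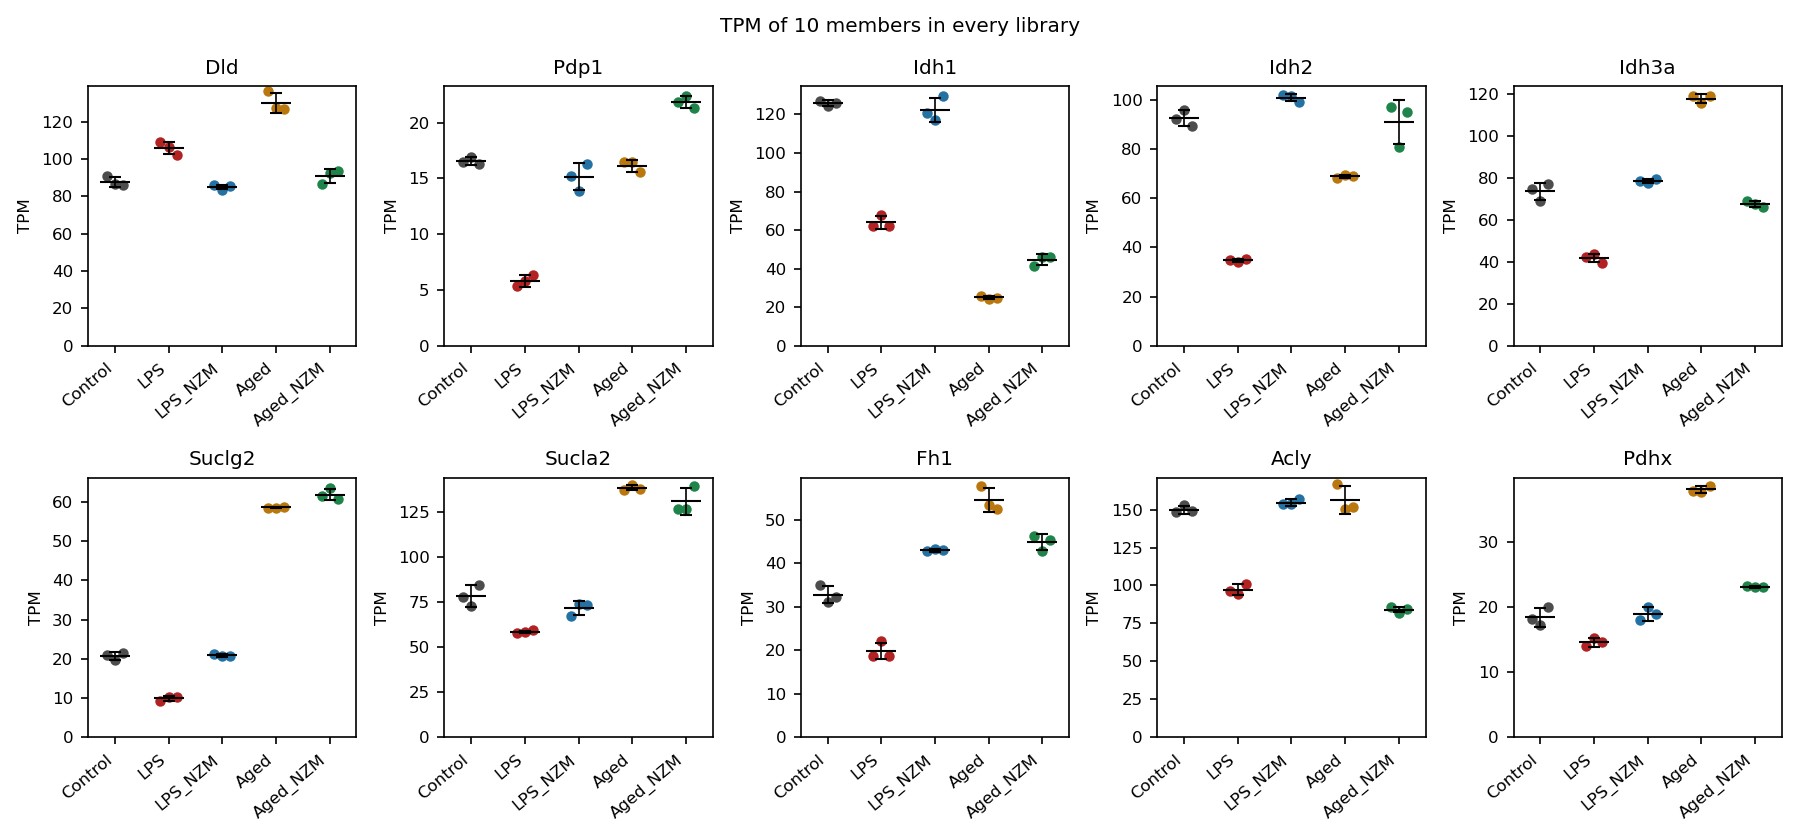
TPM of 10 of the genes in each library (points), with the mean (long bar) and SD over 3 libraries (short bars), on axes that start at 0. Idh2 and Pdp1 are low in LPS and near Control in LPS_NZM, while Idh3a, Acly and Pdhx are lower in Aged_NZM than in Aged.

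With NZM, LPS-treated BMDM had higher TPM of most of the pathway. Against LPS, 30 of the 33 genes rose, 2 fell and 1 had no call, beside rises in 60.4% and falls in 16.9% of all tested genes. Their median log2 change was 0.61 against 0.40 for all genes, and 26 of the 33 lay above the median of all genes. After centring 17 rose and 5 fell, beside 29.8% and 35.3%. This comparison and that of LPS with Control share the LPS libraries, so opposite changes in them are not independent, and each gene's values are given side by side.

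Idh2 rose most, to 102, 101 and 99.1 TPM in LPS_NZM (log2 change 1.51 with SE 0.035, adjusted p = 1.23e-10). Pdk2 was read at 5.10, 5.67 and 5.73 TPM there (log2 change 1.48 with SE 0.099, adjusted p = 3.04e-07) and Pdp1 at 15.3, 13.9 and 16.3 TPM (log2 change 1.25 with SE 0.077, adjusted p = 1.56e-07). These 3 had shown the largest falls with LPS. Fh1, which hydrates fumarate to malate, was read at 35.0, 31.2 and 32.2 TPM in Control, 18.8, 22.1 and 18.7 TPM in LPS and 42.7, 43.4 and 43.0 TPM in LPS_NZM (log2 change 1.08 with SE 0.068, adjusted p = 1.78e-07), so that every LPS_NZM library lay above every library of the other BMDM groups.

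All 19 cycle enzyme genes rose with NZM as deposited, with log2 changes from 0.29 to 1.51, beside rises in 60.4% of all genes. After centring 12 of them rose and 2 fell, beside 29.8% and 35.3% of all genes. Aco1 (1.05), Suclg2 (1.00) and Suclg1 (1.00) followed Idh2 and Fh1. Ogdh, the E1 of 2-oxoglutarate dehydrogenase, and Sucla2 were the 2 that fell after centring, at -0.13 and -0.18, against 0.33 and 0.29 as deposited. Idh1 was read at 121, 117 and 129 TPM in LPS_NZM (log2 change 0.92 with SE 0.047, adjusted p = 3.33e-08), Mdh1 at 103, 107 and 106 TPM and Mdh2 at 354, 359.5 and 362 TPM. Suclg2 was read at 21.3, 20.7 and 20.7 TPM and Sucla2 at 67.5, 74.2 and 73.4 TPM.

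Pyruvate entry genes rose less evenly. Pdha1, Pdhb, Dlat and Pdhx rose by log2 changes from 0.36 to 0.60 as deposited, and only Pdha1 of these 4 rose after centring. Dld was read at 85.9, 83.6 and 85.5 TPM in LPS_NZM and fell on both scales (log2 change -0.31 with SE 0.036, adjusted p = 1.81e-05). Pdk1 was read at 28.2, 26.7 and 28.8 TPM (log2 change 0.57 with SE 0.049, adjusted p = 2.08e-06) and Pdk4 at 10.3, 8.96 and 9.46 TPM (log2 change 0.81 with SE 0.071, adjusted p = 2.37e-06). Pdk3, at 22.7, 24.0 and 23.5 TPM, had no call as deposited (log2 change -0.08 with SE 0.043, adjusted p = 0.104) and fell after centring (-0.55). Pdp2 was read at 3.94, 4.70 and 4.47 TPM (log2 change 0.42 with SE 0.091, adjusted p = 0.00181). Both exits rose as deposited, Acly by 0.66 and Me2 by 0.46. The rises of Me2, Pdk1 and Pdp2 had no call after centring.

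Set against Control, LPS_NZM differed by less. Here 12 of the 33 genes were higher, 6 lower and 15 had no call, beside 18.6% higher and 29.1% lower among all tested genes, and after centring 18 were higher and 4 lower, beside 24.9% and 22.0%. Cycle enzymes made up 10 of the 12 higher genes, led by Fh1 (0.38), the succinate dehydrogenase subunit genes Sdhb (0.37) and Sdhd (0.27) and Idh3b (0.28). The lower ones were Me2 (-0.45), Pdk2 (-0.37), Pdk4 (-0.37), Pdp2 (-0.36), Mdh1 (-0.18) and Ogdh (-0.09). The calls of Idh2, Idh3g, Sdha, Ogdh and Mdh1 were each lost on leaving out at least 1 library, with adjusted p of up to 0.0695, 0.0865, 0.105, 0.127 and 0.0646. For Idh2 the libraries were LPS_NZM replicates 1 and 2 and Control replicate 3, and for Mdh1 LPS_NZM replicate 1. Idh3g lost its call without LPS_NZM replicate 1 or 2 or Control replicate 2 or 3, Sdha without LPS_NZM replicate 2 or 3 or Control replicate 1 or 3, and Ogdh without any single library of these groups but Control replicate 1. Calls were gained by Pdha1 without LPS_NZM replicate 3 or Control replicate 3 (adjusted p down to 0.0322) and by Cs and Sucla2 without Control replicate 2 (adjusted p = 0.0414 and 0.0281).

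In BMSC the genes moved in both directions with NZM. Of the 32 tested genes 9 rose, 17 fell and 6 had no call, beside rises in 21.6% and falls in 48.9% of all 13865 tested genes. Their median log2 change was -0.24 against -0.18 for all genes. After centring 14 rose and 15 fell, beside 31.1% and 35.4%. The stromal markers rose in the same comparison, 7 of 7 tested, and the share of mitochondrial transcripts was higher in Aged_NZM.

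Idh1 rose most. It was read at 26.1, 24.5 and 24.8 TPM in Aged and 41.3, 46.0 and 46.3 TPM in Aged_NZM (log2 change 0.80 with SE 0.056, adjusted p = 1.25e-06). Its mitochondrial partner Idh2 was read at 68.2, 69.6 and 68.9 TPM and 96.9, 80.6 and 94.8 TPM (log2 change 0.39 with SE 0.065, adjusted p = 4.50e-04). The Aged_NZM libraries lay above all Aged libraries for both enzymes, which make NADPH while oxidising isocitrate. Idh3a, the catalytic subunit of the NAD-dependent enzyme of the same step, went the other way, from 119, 116 and 119 TPM to 69.0, 67.4 and 66.3 TPM (log2 change -0.79 with SE 0.035, adjusted p = 6.78e-08). Between Aged_NZM and Aged 28 genes of the pathway were without overlap and 5 overlapped, so such separation is not particular to these enzymes. The share without overlap among all genes was not computed.

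Of the 4 kinase genes 3 rose and 1 fell on both scales, beside rises in 21.6% and falls in 48.9% of all genes as deposited. Pdk4 showed the largest fall of the pathway, from 20.6, 18.5 and 19.6 TPM in Aged to 7.06, 7.51 and 7.82 TPM in Aged_NZM (log2 change -1.28 with SE 0.066, adjusted p = 1.68e-07). Pdk2 was read at 12.7, 13.7 and 12.8 TPM and 23.3, 20.2 and 22.6 TPM (log2 change 0.71 with SE 0.065, adjusted p = 8.31e-06). Pdk1 was read at 59.3, 60.1 and 56.0 TPM and 74.9, 78.5 and 77.1 TPM (log2 change 0.39 with SE 0.042, adjusted p = 2.41e-05). Rises and fall left the groups without overlap in each of these. The same held for 28 genes of the pathway between Aged_NZM and Aged, while 5 overlapped, so this separation is not particular to the kinases. Pdk3 was read at 54.9, 50.5 and 50.7 TPM and 59.1, 62.6 and 61.9 TPM (log2 change 0.23 with SE 0.047, adjusted p = 0.00164). Pdp1, the phosphatase, was read at 16.5, 16.4 and 15.5 TPM and 21.9, 22.4 and 21.3 TPM (log2 change 0.42 with SE 0.052, adjusted p = 6.43e-05), while Pdp2 fell from 6.26, 6.21 and 5.74 TPM to 4.71, 4.63 and 4.60 TPM (log2 change -0.32 with SE 0.076, adjusted p = 0.00386), a fall with no call after centring (-0.16, adjusted p = 0.0617).

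Of the complex itself, 4 of 5 genes fell on both scales, beside 48.9% of all genes as deposited. Pdhx fell most, from 37.8, 37.6 and 38.6 TPM to 23.2, 23.0 and 23.0 TPM (log2 change -0.70 with SE 0.042, adjusted p = 4.36e-07), followed by Dld (136, 127 and 127 TPM to 86.5, 92.6 and 93.8 TPM, log2 change -0.51), Pdhb (-0.36) and Dlat (-0.32). Pdha1 had no call (log2 change 0.07, adjusted p = 0.127), though it was called higher without Aged replicate 1 (adjusted p = 0.0287) and after centring (0.23, adjusted p = 1.31e-04).

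Of the 19 cycle enzyme genes 5 rose and 9 fell, beside 21.6% and 48.9% of all genes, and after centring 9 rose and 8 fell. Besides Idh1 and Idh2 the risers were Mdh1, from 126, 128 and 124 TPM to 156, 163 and 159 TPM (log2 change 0.34 with SE 0.034, adjusted p = 1.35e-05), Sdhc (0.16) and Sdha (0.10, adjusted p = 0.0488). The Sdha call was lost without any 1 of the 6 libraries but Aged replicate 1, with adjusted p of up to 0.184. Mdh2 fell from 392, 379.7 and 386 TPM to 314, 289 and 303 TPM (log2 change -0.35 with SE 0.038, adjusted p = 2.30e-05), opposite to Mdh1. Dlst (-0.49), Cs (-0.46), Aco1 (-0.42), Sdhd (-0.41), Suclg1 (-0.40), Fh1 (-0.28) and Idh3b (-0.21) fell as well, and Idh3b and Fh1 were the least of them. Suclg2, at 58.5, 58.5 and 58.7 TPM in Aged and 61.4, 63.5 and 60.6 TPM in Aged_NZM, had no call as deposited (adjusted p = 0.0946). After centring Suclg2 (0.23), Idh3g (0.21), Ogdh (0.14) and Sdhb (0.12) were called higher and Idh3b lost its call. Sucla2, at 137, 140.0 and 138 TPM and 127, 127 and 139.6 TPM, had none either (adjusted p = 0.128), except without Aged_NZM replicate 3 (adjusted p = 0.0185).

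Both exits fell in BMSC on both scales. Acly was read at 167, 150.3 and 152 TPM in Aged and 85.7, 82.1 and 84.6 TPM in Aged_NZM (log2 change -0.88 with SE 0.046, adjusted p = 1.86e-07), and Me2 fell by 0.63 on the log2 scale.

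**Figure D3:**
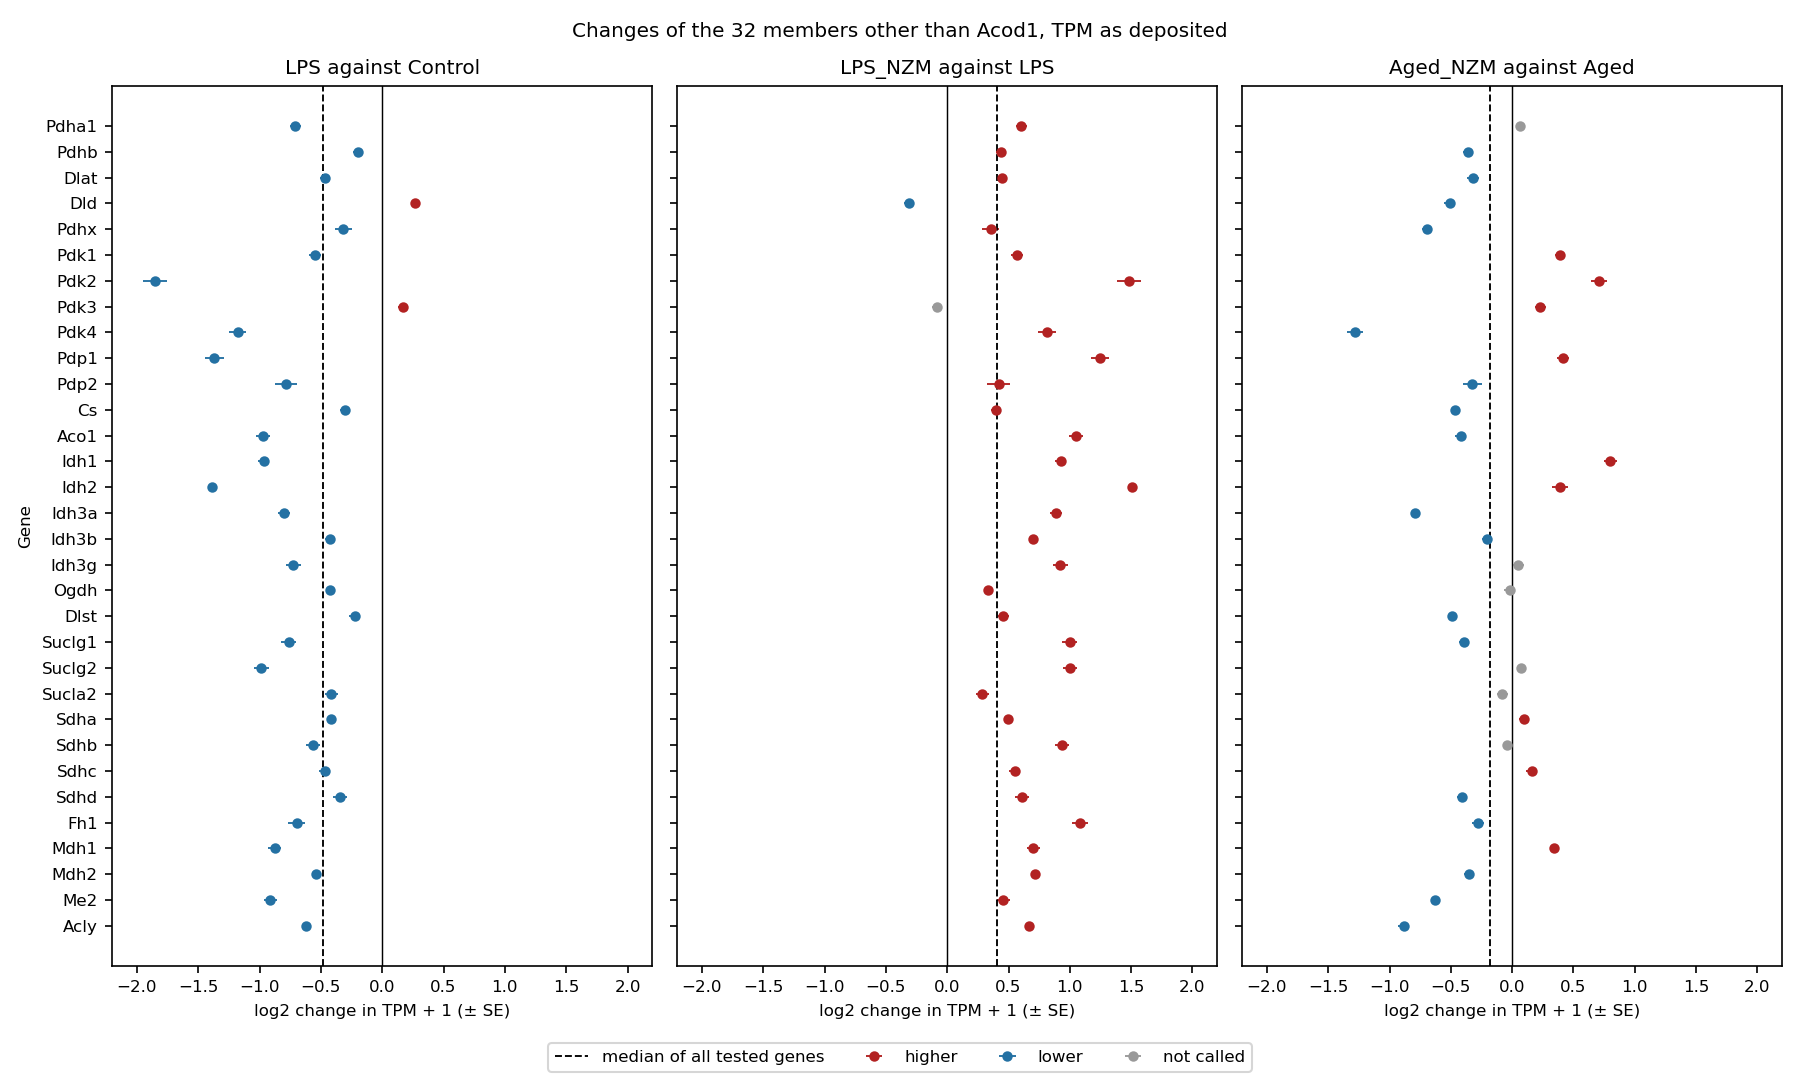
The log2 changes (± SE) of the 32 genes other than Acod1 in 3 comparisons of TPM as deposited, coloured by call, with the median of all tested genes as a dashed line at -0.48, 0.40 and -0.18. Nearly all points are below 0 in LPS against Control and above 0 in LPS_NZM against LPS, and they lie on both sides of 0 in Aged_NZM against Aged.

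The share of each kinase in the summed TPM of the 4 kinases is a ratio within a library that no scaling moves. Pdk3 made up 31.6% ± 0.54 (SD, n = 3) in Control, 50.0% ± 1.02 in LPS and 35.3% ± 1.35 in LPS_NZM. Pdk2 made up 10.7% ± 0.61, 2.68% ± 0.45 and 8.29% ± 0.52, and Pdk4 18.2% ± 0.87, 10.1% ± 0.13 and 14.4% ± 0.99, in the same order. In LPS the kinase transcripts were thus mostly Pdk3 and Pdk1, which held 37.2% ± 0.69. In BMSC Pdk4 made up 13.7% ± 0.63 in Aged and 4.45% ± 0.16 in Aged_NZM, and Pdk2 9.15% ± 0.49 and 13.2% ± 1.11. Pdk1 went from 40.9% ± 1.10 to 45.9% ± 0.54, and Pdk3 held 36.3% ± 0.93 and 36.5% ± 0.58.

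**Figure D4:**
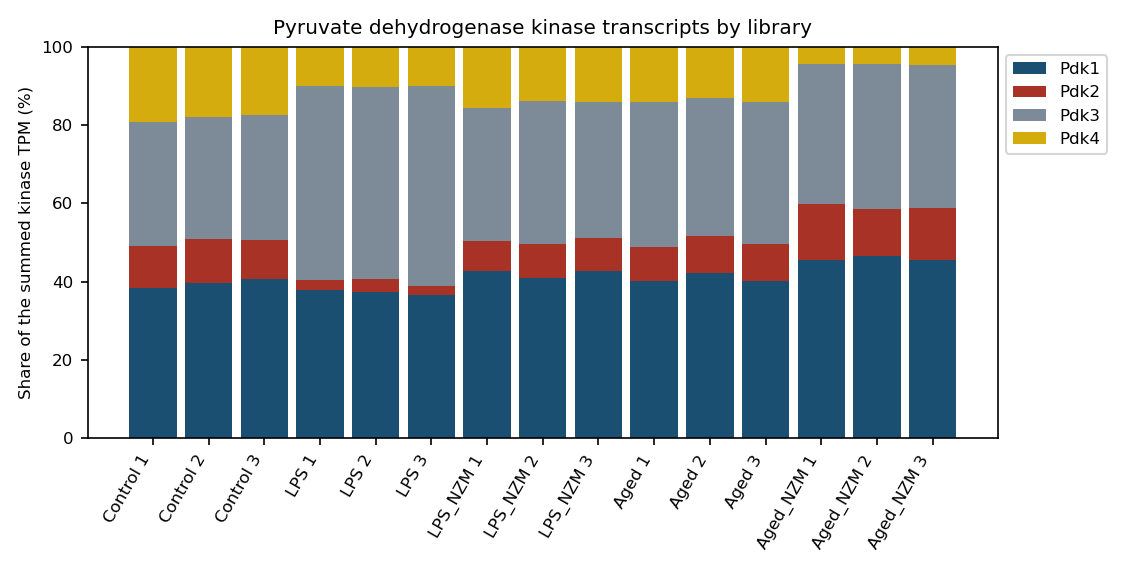
Share of Pdk1, Pdk2, Pdk3 and Pdk4 in their summed TPM in each of the 15 libraries, in percent. Pdk3 is near 50.0% in LPS, where Pdk2 is at 2.38% to 3.20%, and Pdk4 is smallest in Aged_NZM.

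Other pairs of forms were compared in the same way. Idh1 held 57.7% ± 1.05 of Idh1 and Idh2 in Control, 64.8% ± 1.52 in LPS, 54.8% ± 1.58 in LPS_NZM, 26.7% ± 0.86 in Aged and 33.03% ± 3.25 in Aged_NZM, so that the cytosolic form was the larger in BMDM and the smaller in BMSC. Pdp1 held 73.7% ± 1.01, 65.8% ± 2.43, 77.6% ± 2.51, 72.7% ± 0.30 and 82.5% ± 0.36 of the 2 phosphatases. Suclg2 held 20.9% ± 0.55, 14.5% ± 0.63, 22.6% ± 1.24, 29.7% ± 0.24 and 32.1% ± 1.63 of Suclg2 and Sucla2. Mdh1 held 27.3% ± 1.52, 22.9% ± 0.35, 22.8% ± 0.20, 24.6% ± 0.49 and 34.6% ± 1.42 of the 2 malate dehydrogenases, in the same order of groups. The Mdh1 share therefore stayed low with NZM in BMDM and was higher with NZM in BMSC. Ogdh held 98.3% ± 0.41, 98.9% ± 0.18 and 98.8% ± 0.28 of Ogdh and its related gene Ogdhl in Control, LPS and LPS_NZM, 82.6% ± 1.78 in Aged and 88.0% ± 0.10 in Aged_NZM, where Ogdhl was read at up to 13.9 TPM. With 3 libraries against 3 an exact two-sided permutation test cannot go below p = 0.1, and over the 36 tests of 9 shares the lowest adjusted p was 0.116, so none passed.

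The responses to NZM in the 2 cell types were compared by a difference of differences over all 15 libraries. It gives the change in BMSC minus that in BMDM, and cell type and pretreatment cannot be told apart in it. Acod1 was left out because it was too low for testing in BMSC. As deposited 30 of the other 32 genes had a lower response in BMSC, 1, Pdk3, had a higher one and 1, Idh1, had no call, beside 54.8% lower and 17.2% higher among all 16696 tested genes. After centring 20 were lower and 9 higher, beside 28.7% and 39.9%. The 16696 genes passed the filter over all 15 libraries together, so they include genes too low for testing in 1 cell type. Pdk4, which rose by 0.81 in BMDM and fell in BMSC (-1.28), had the largest difference (log2 change -2.09 with SE 0.089, adjusted p = 4.41e-11). Idh3a (-1.68), Acly (-1.55), Aco1 (-1.47), Suclg1 (-1.39) and Fh1 (-1.36) came next, each risen in BMDM and fallen in BMSC. All 6 of these differences were also called after centring.

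Pdk3 rose in BMSC (0.23) and had no call in BMDM (-0.08), a difference of 0.31 (adjusted p = 1.89e-04). Idh1 rose in both, by 0.92 in BMDM and 0.80 in BMSC, with a difference of -0.12 as deposited (adjusted p = 0.146) and 0.50 after centring, which was called.

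**Figure D5:**
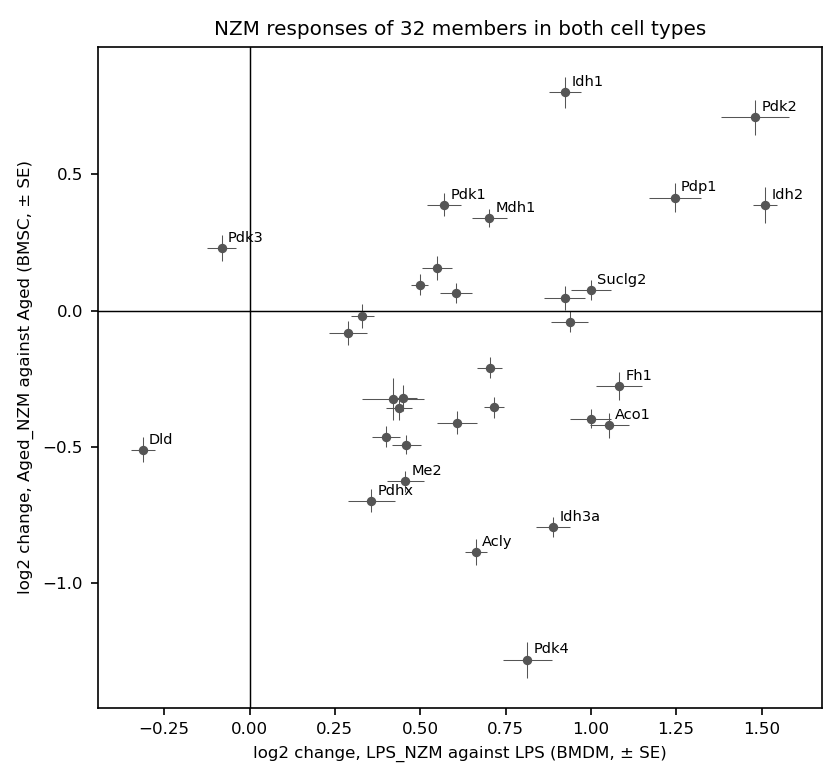
The NZM response of each gene other than Acod1 in BMDM (LPS_NZM against LPS, x axis) against that in BMSC (Aged_NZM against Aged, y axis), as log2 changes in TPM + 1. Idh1, Idh2, Pdk1, Pdk2 and Pdp1 are above 0 on both axes, and Pdk4, Acly, Idh3a and Pdhx are above 0 on the x axis and below 0 on the y axis.

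Levels in the vehicle-treated BMDM and in Aged BMSC differed for most of the genes, a comparison in which cell type and treatment cannot be told apart. In Aged 19 of the 33 genes were higher than in Control, 7 lower and 7 had no call, beside 53.6% higher and 35.2% lower among all genes. Acod1 is 1 of the 7 lower genes and passed the filter through the BMDM libraries alone. After centring 18 were higher and 12 lower, beside 49.1% and 39.3%. Apart from Acod1, Idh1 had the largest difference, with 25.1 ± 0.88 TPM in Aged against 126 ± 1.30 TPM in Control (log2 change -2.28 with SE 0.052, adjusted p = 1.07e-14). Sdha (-1.21), Ogdh (-0.95), Sdhc (-0.90), Sdhb (-0.42) and Idh2 (-0.42) were lower too. Of the succinate dehydrogenase genes Sdhd alone was higher in Aged (0.37). Suclg2 was higher, at 58.6 ± 0.14 against 20.7 ± 0.95 TPM (log2 change 1.46 with SE 0.045, adjusted p = 3.73e-13), as were all 4 kinase genes, by log2 differences from 0.59 for Pdk4 to 1.21 for Pdk3. Aco1 lost its call (log2 difference 0.15) without Aged replicate 1 or Control replicate 1, with adjusted p of up to 0.092, and Mdh1 gained one without Control replicate 1 (adjusted p = 6.95e-04).

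Genes around the pathway were described from 5 further lists. Over all tested genes, 65.6% fell and 15.2% rose with LPS (29.1% and 36.5% after centring), 60.4% rose and 16.9% fell with NZM in BMDM (29.8% and 35.3%), and 21.6% rose and 48.9% fell with NZM in BMSC (31.1% and 35.4%), and the counts of these short lists stand beside those shares. With LPS, 9 of 9 genes for assembly and cofactors fell, with a median log2 change of -0.97, and 5 fell and 1 rose after centring. Lipt2, which attaches lipoate for the dehydrogenase complexes, stood at -1.28 and Sdhaf1, an assembly factor of succinate dehydrogenase, at -1.15. With NZM in BMDM 8 of the 9 rose (5 after centring), Lipt2 by 1.53 and Sdhaf1 by 1.49. In BMSC 7 fell and 2 rose with NZM (4 and 2 after centring), with Lipt2 at -0.78 and Sdhaf1 at -0.72.

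Of 7 tested mitochondrial carriers 4 fell and 2 rose with LPS, or 3 and 4 after centring, beside falls in 65.6% and 29.1% of all genes on the 2 scales. Slc25a13, an aspartate-glutamate carrier, had the largest change in all 3 comparisons, -1.57 with LPS, 2.39 with NZM in BMDM and -1.01 with NZM in BMSC. Mpc2, a subunit of the mitochondrial pyruvate carrier, fell with LPS (-0.81). With NZM 4 carriers rose and 2 fell in BMDM, with Slc25a11, the oxoglutarate carrier, at 0.71, or 2 rose and 4 fell after centring. In BMSC 2 rose, among them Mpc1 (0.23), and 1 fell, or 5 and 1 after centring.

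Among genes that feed or drain the cycle, 8 of 10 tested fell and 0 rose with LPS (4 fell and 2 rose after centring), beside the same 65.6% and 29.1%, led by the transaminases Gpt (-1.09) and Got1 (-1.02). With NZM in BMDM 8 rose and 1 fell (4 and 2 after centring), led by Gpt (1.10) and Gpt2 (0.96). The level of Gpt was low, at 2.50 ± 0.36 TPM in Control, 0.67 ± 0.37 TPM in LPS and 2.54 ± 0.32 TPM in LPS_NZM. In BMSC 3 of 12 rose and 7 fell (3 and 5 after centring). Pcx, pyruvate carboxylase, which makes oxaloacetate from pyruvate, rose by 1.59 there, and Gpt2 stood at -1.10.

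In a list of genes that use citrate and acetate, mostly for cytosolic lipid synthesis, 4 of 6 fell and 1 rose with LPS (4 and 2 after centring), near the 65.6% of falls among all genes as deposited. The largest falls were those of Acss1 (-2.12), whose acetyl-CoA synthetase is mitochondrial, and of the fatty acid elongase Elovl6 (-2.08). With NZM in BMDM 4 rose and 2 fell on both scales, led by Acss1 (3.26) and the fatty acid synthase gene Fasn (1.45). In BMSC 2 of 5 fell and 1 rose on both scales, with Fasn at -0.77 and Acss2 at 0.48. Of the genes that handle itaconate, succinate and related acids, D2hgdh, D-2-hydroxyglutarate dehydrogenase, fell with LPS (-1.49) and rose with NZM in BMDM (1.16), both also after centring. Clybl, which takes part in the breakdown of itaconate, fell with LPS (-0.69), with no call after centring (-0.14), and rose with NZM in BMDM (1.01) and in BMSC (0.28). D2hgdh had no call in BMSC (0.03, adjusted p = 0.739). The succinate receptor gene Sucnr1 was listed at 0 in all libraries.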

How the data were processed

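The 15 libraries of mouse bone marrow RNA fell into 5 groups of 3, read from the sample titles. The authors deposited TPM for 56979 Ensembl identifiers. Per the submitters' processing notes, fastp, HISAT2, StringTie, RSEM and the build GRCm39 were used, and versions and annotation are not given in the sources used here. A name table gave symbols for 52072 identifiers.

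Two-sided tests on log2(TPM + 1) were made in R 4.3.3 with limma 3.58.1 (lmFit, contrasts.fit, eBayes with a trend), and tables and figures in Python 3.11.15. Genes with a TPM of at least 1 in at least 3 libraries of the fit were tested. The 9 BMDM libraries were fitted together, the 6 BMSC libraries together, and all 15 for the difference of NZM responses, given for genes that passed the filter in both cell types, and for Aged against Control. Benjamini-Hochberg adjustment ran over all tested genes, and calls were made at an adjusted p under 0.05. TPM are shares, so every comparison was repeated with each library centred on the median of its tested genes. Shares within gene families were compared by exact permutation tests over libraries. The fits were tested on simulated data.

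The genes, lists and tests were chosen with earlier results of these data known. For the list of itaconate and succinate handling, 1 gene is not reported here. Values in every library are given for Acod1, for the 4 called genes with the largest changes in each direction of 3 comparisons and for the family members, and of each further list the called genes with the 2 largest changes are named. Alternatives were removal of mitochondrially encoded genes, quantile normalization, no filter, a minimum TPM of 5, a pseudocount of 0.1, no trend, weights per library, a replicate block, only the groups compared, and leaving out each library. All 15 libraries entered the reported values. Promoter windows are from RefSeq, build GRCm38.p6.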

Additional observations from a re-analysis of the deposited data

Results flagged for a closer look

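The NZM response of BMSC (Aged_NZM against Aged) was set against that of BMDM (LPS_NZM against LPS). Of the 32 genes tested in both cell types 30 differed downwards and 1 upwards. Among all 16696 tested genes 54.8% were lower and 17.2% higher, or 28.7% and 39.9% after centring. The difference itself was tested, in limma with Benjamini-Hochberg adjustment over all tested genes. It is the log2 change in BMSC minus that in BMDM. The values were Pdha1 (-0.54), Pdhb (-0.80), Dlat (-0.77), Dld (-0.20), Pdhx (-1.05), Pdk1 (-0.18), Pdk2 (-0.77), Pdk3 (0.31), Pdk4 (-2.09), Pdp1 (-0.83), Pdp2 (-0.74), Cs (-0.86), Aco1 (-1.47), Idh2 (-1.12), Idh3a (-1.68), Idh3b (-0.91), Idh3g (-0.88), Ogdh (-0.35), Dlst (-0.95), Suclg1 (-1.39), Suclg2 (-0.92), Sucla2 (-0.37), Sdha (-0.40), Sdhb (-0.98), Sdhc (-0.39), Sdhd (-1.02), Fh1 (-1.36), Mdh1 (-0.36), Mdh2 (-1.07), Me2 (-1.08) and Acly (-1.55). Of these, Dld, Pdk1, Ogdh, Sucla2, Sdha, Sdhc and Mdh1 were called in the opposite direction after median centring, and Pdha1, Pdk2 and Pdp2 were no longer called. Cell type and pretreatment cannot be told apart in this difference.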

How the results depend on the processing

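Scaling was the choice that moved the counts. After median centring the number of the 33 genes called was 11 higher and 14 lower in LPS against Control, and 17 higher and 5 lower in LPS_NZM against LPS. It was 14 higher in Aged_NZM against Aged, 9 higher in the difference of the NZM responses and 12 lower in Aged against Control. Quantile normalization gave 14 higher in Aged_NZM against Aged and 3 higher in the difference of the NZM responses. The other counts of calls were within 1.5 times of those reported under every alternative run. After median centring the log2 changes that turned sign were, in LPS against Control, Pdhb 0.35, Dlat 0.079, Pdhx 0.23, Cs 0.24, Idh3b 0.12, Ogdh 0.12, Dlst 0.32, Sucla2 0.13, Sdha 0.13, Sdhc 0.078, Sdhd 0.20 and Mdh2 0.0043. In LPS_NZM against LPS they were Pdhb -0.026, Dlat -0.014, Pdhx -0.11, Pdp2 -0.045, Cs -0.065, Ogdh -0.13, Dlst -0.0054, Sucla2 -0.18 and Me2 -0.0077. In LPS_NZM against Control they were Dlat 0.065, Dld 0.038 and Idh1 0.041. In Aged_NZM against Aged they were Ogdh 0.14, Sucla2 0.079 and Sdhb 0.12. In the difference of the NZM responses they were Pdha1 0.084, Dld 0.43, Pdk1 0.44, Idh1 0.50, Ogdh 0.27, Sucla2 0.25, Sdha 0.22, Sdhc 0.23 and Mdh1 0.26. In Aged against Control they were Pdp2 -0.11, Cs -0.10, Mdh1 -0.068 and Acly -0.085. With quantile normalization the log2 changes that turned sign were, in LPS against Control, Pdhx 0.22. In LPS_NZM against LPS they were Pdhx -0.092. In LPS_NZM against Control they were Dlat 0.0052, Cs -0.0025, Sdha -0.023 and Acly -0.014. In Aged_NZM against Aged they were Ogdh 0.18, Sucla2 0.058 and Sdhb 0.14. In the difference of the NZM responses they were Dld 0.037, Pdk1 0.47, Idh1 0.33, Ogdh 0.001, Sucla2 0.0085, Sdhc 0.067 and Mdh1 0.033. In Aged against Control they were Cs -0.052, Mdh1 -0.018 and Acly -0.011. Without mitochondrially encoded genes Ogdh stood at 0.020 in Aged_NZM against Aged and Cs at -0.0010 in Aged against Control, and with weights per library Ogdh stood at 0.010 in Aged_NZM against Aged. On leaving out 1 library, signs turned in LPS_NZM against Control for Pdk1 (-0.0007 without LPS_NZM replicate 3, up to 0.053), and without Control replicate 2 for Dlat (0.0027, down to -0.039), Pdhx (-0.0061, up to 0.098) and Suclg2 (-0.020, up to 0.042). Signs also turned in Aged_NZM against Aged for Ogdh (0.017 without Aged replicate 1, down to -0.046). In Aged against Control they turned for Dlst (0.0023 without Aged replicate 3, 0.021 without Control replicate 1, down to -0.040) and Pdp2 (-0.0059 without Control replicate 3, up to 0.083). The cause of these turns was not tested.

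Leaving out each library in turn gave 3 higher and 30 lower throughout in LPS against Control, 30 higher and 2 lower in LPS_NZM against LPS, and 1 higher and 30 lower in the difference of the NZM responses. The counts ran from 9 to 12 higher and from 4 to 6 lower in LPS_NZM against Control, from 8 to 10 higher and from 17 to 18 lower in Aged_NZM against Aged, and from 18 to 19 higher with 7 lower in Aged against Control. The Pdk3 share in Aged_NZM against Aged, a difference of 0.171 points, ran from -0.316 (without Aged replicate 2) to 0.613, and was -0.116 without Aged_NZM replicate 2. The Mdh1 share in LPS_NZM against LPS, -0.089 points, ran from -0.257 to 0.095 (without LPS replicate 1). For samples with the same replicate number, correlations of their deviations ran from -0.072 to 0.185. In Control with LPS_NZM they were 0.145, 0.02 and 0.185, where samples of other numbers ran from -0.171 to 0.042. In the other comparisons same-number samples ran from -0.072 to 0.039. Whether the numbers pair the samples is therefore not known. With the replicate number as a block the count in Aged_NZM against Aged was 8 higher and 17 lower, Sdha losing its call (adjusted p = 0.0643), and the block changed no other count or call. TPM keep no sequencing depth, so what depth limits is unknown.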
